A study of Homo sapiens with 9 samples.

Results

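The 10 genes described here encode proteins of the desmosome and of the plaque beneath it: the desmosomal cadherins *DSG2*, *DSC2* and *DSC3*, the plakophilins *PKP2*, *PKP3* and *PKP4*, the plakins *DSP*, *PPL* and *EVPL*, and the membrane protein *PERP*. They were listed by name, with earlier results of these data known, and are 10 of the 27902 genes in the tables. RNA-seq was performed on 9 libraries of DU145, an established human prostate cancer cell line whose genotype the labels give as WT. Control cells expressed a scrambled short hairpin RNA (scramble, 3 libraries), and knockdown cells expressed a hairpin against *FZD6*, which encodes a Frizzled receptor of Wnt signaling, either shRNA FZD6 #1 (shRNA1, 3 libraries) or shRNA FZD6 #2 (shRNA2, 3 libraries). The methods describe lentiviral vectors for constitutive and for doxycycline-inducible hairpins, and which of them was used for these libraries was not stated in the sources used here. The comparison asked how gene expression changes when *FZD6* is knocked down. The labels call the libraries triplicates without naming separate cultures, so the p-values measure the spread between these libraries, which may be technical.

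Desmosomes are junctions that tie the keratin filaments of neighbouring epithelial cells together. Desmogleins and desmocollins bridge the gap between the cells, their tails bind plakoglobin and plakophilins, and desmoplakin links that plaque to keratin. In stratified epithelium, periplakin and envoplakin lie beneath the membrane next to desmosomes and form part of the first layer of the cornified envelope, the crosslinked shell of the outermost cells. Desmosomal proteins are also made in simple and glandular epithelia such as that of the prostate.

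The values are FPKM, the number of fragments scaled for transcript length and library size, so that levels of different genes can be compared. *FZD6* was at 20.92, 20.54 and 20.04 FPKM in the control libraries, at 9.47, 10.2 and 9.80 FPKM with shRNA1 and at 7.84, 8.79 and 7.69 FPKM with shRNA2. The knockdown libraries thus all lay below the controls, with p = 0.0119 in a two-sided exact permutation test, the smallest value possible with groups of 6 and 3. The estimated depth was 32.5 to 40.7 M fragments per library. Among the 12509 genes that averaged 1 FPKM or more, 1690 were called higher and 888 lower in knockdown cells at an adjusted p under 0.05 (limma, Benjamini-Hochberg over all tested genes), a split that became 1047 and 1058 with quantile normalization and 808 and 693 once each library's trend in transcript length was removed. One library stood apart, since in shRNA2 replicate 2 longer transcripts were higher relative to the mean of all libraries (rho = 0.209 across genes), whereas rho was −0.427 to −0.205 in the other knockdown libraries and 0.330 to 0.520 in the controls. Of the markers of other cell types, all 6 fibroblast and all 3 endothelial genes were under 1 FPKM, and *PTPRC* and *CD3E* of immune cells were listed at 0 in every library. Summed over the list, fibroblast markers held 0.365 to 0.398 FPKM in control libraries and 0.322 to 0.497 FPKM in knockdown libraries, and endothelial markers held at most 0.0943 FPKM.

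In control cells the 10 genes ranged over more than 2 orders of magnitude. *DSG2* was highest, at 59.8 ± 1.68 FPKM (SD, n = 3), above 88.2% of the tested genes in the mean over the control libraries. It was followed by *PKP3* at 23.6 ± 0.515 FPKM and *PKP4* at 18.1 ± 0.335 FPKM (SD, n = 3). *PPL*, *EVPL*, *DSP* and *PERP* formed the middle of the order, with means of 11.7, 11.2, 8.65 and 8.33 FPKM. *DSC2* (4.42 FPKM) and *DSC3* (1.72 FPKM) were lower, and *PKP2* was lowest at 0.414 FPKM. Neighbours in this order did not overlap in their control libraries, except *DSP* and *PERP*. In both knockdown groups *DSP* took the 7th place and *PERP* the 6th, and the other 8 genes kept their places.

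**Figure D1:**
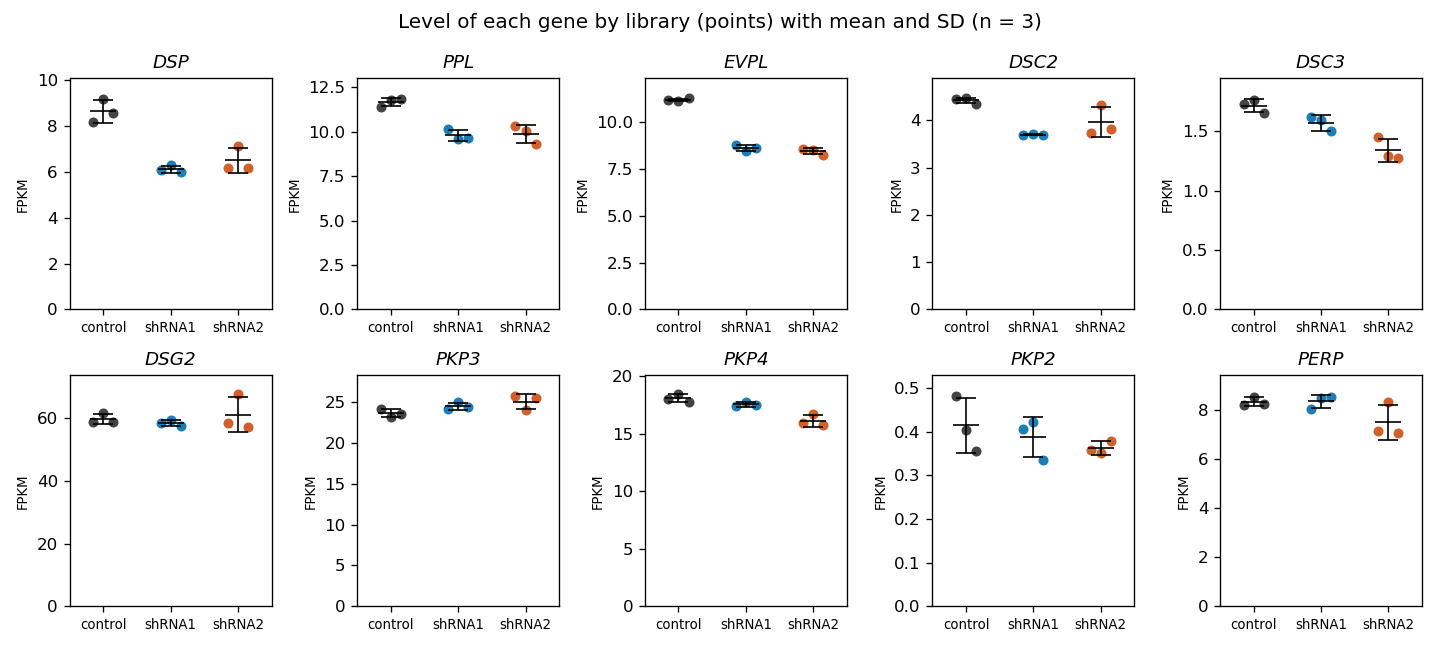
FPKM of each gene (linear axis from 0) in the 9 libraries, with control, shRNA1 and shRNA2 side by side. Points are libraries, and bars give the mean and SD of 3 libraries. *DSP*, *PPL* and *EVPL* lie lower in all 6 knockdown libraries, whereas *DSG2* stays near 60 FPKM in all but shRNA2 replicate 2, at 67.7 FPKM.

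In knockdown cells 4 of the 9 members that could be tested fell and none rose, when 7.1% of all tested genes fell and 13.5% rose. The genes that fell were *DSP*, *EVPL*, *PPL* and *DSC2*. The median log2 fold change of the 9 members was −0.15, and that of all tested genes was 0.03. All 6 knockdown libraries were below all 3 control libraries for 5 members, the same 4 and *DSC3*, an arrangement found in 9.46% of tested genes. With shRNA1 alone 4 members fell, against 7.19% of tested genes, and with shRNA2 alone 5 fell, against 11.4%. Without shRNA2 replicate 2, shRNA2 lowered 7 members, against 15.5% of tested genes, and raised 1, against 18%. By the criteria of the study, an unadjusted p under 0.01 and at least 1.2-fold, *DSP* and *EVPL* fell in each of these comparisons, against 2.04% of tested genes for both hairpins together, 2.12% for shRNA1 and 4.18% for shRNA2. The hairpins were compared with the same 3 control libraries, so their values are not independent of each other. In a bulk measurement a change in the number of cells that express a gene and a change in RNA per cell cannot be told apart.

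The plakins gave the largest differences. *DSP*, which encodes desmoplakin, lies on chromosome 6 from 7541671 to 7586714 (hg38). Its level was 8.18, 9.18 and 8.60 FPKM in the control libraries, 6.07, 6.29 and 6.01 FPKM with shRNA1 and 6.18, 7.15 and 6.19 FPKM with shRNA2. The knockdown libraries all lay below the controls, the hairpins overlapped each other, and the highest knockdown value was that of shRNA2 replicate 2. *DSP* fell by 27.0% over the 6 knockdown libraries, which is −0.40 ± 0.053 (log2 fold change of FPKM + 1 ± standard error, adjusted p = 0.00302 by limma). It changed by −0.44 on this scale with shRNA1 (adjusted p = 0.00545 by limma) and −0.36 with shRNA2 (adjusted p = 0.00521 by limma).

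*EVPL* encodes envoplakin and lies on chromosome 17 from 76006845 to 76027306. It was at 11.2, 11.1 and 11.3 FPKM in control cells, at 8.75, 8.47 and 8.64 FPKM with shRNA1 and at 8.57, 8.49 and 8.27 FPKM with shRNA2. The libraries of each group lay close together and far from the other side, with an SD of 0.0706 FPKM among the controls. The level fell by 23.8% over the 6 knockdown libraries (log2 fold change −0.36 ± 0.0236, adjusted p = 0.000490 by limma). It fell by 23.0% with shRNA1 (log2 fold change −0.34, adjusted p = 0.00115 by limma) and by 24.6% with shRNA2 (log2 fold change −0.37, adjusted p = 0.000292 by limma).

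*PPL* encodes periplakin, the partner of envoplakin in the envelope, and lies on chromosome 16 from 4882507 to 4937148. Its control values were 11.4, 11.8 and 11.8 FPKM, those with shRNA1 were 10.2, 9.61 and 9.62 FPKM, and those with shRNA2 were 10.3, 10.02 and 9.30 FPKM. All knockdown libraries were below all controls, and the hairpins overlapped each other. *PPL* fell by 15.7%, with a log2 fold change of −0.23 ± 0.0348 for both hairpins together (adjusted p = 0.00456 by limma), −0.23 with shRNA1 (adjusted p = 0.0107) and −0.22 with shRNA2 (adjusted p = 0.00823).

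**Figure D2:**
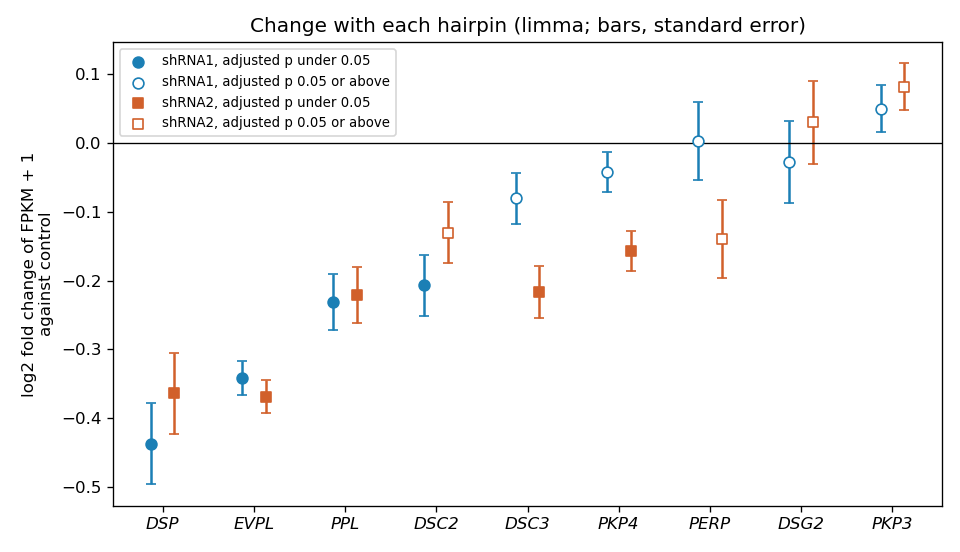
The log2 fold change of FPKM + 1 against control (vertical axis) for each tested member with shRNA1 (circles) and shRNA2 (squares), with bars for the standard error and filled symbols for an adjusted p under 0.05 by limma. *DSP*, *EVPL* and *PPL* are filled for both hairpins, *DSC2* for shRNA1 only and *DSC3* and *PKP4* for shRNA2 only. Both hairpins share the same controls.

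The promoters of *DSP*, which fell, and of *DSG2*, which did not pass the test, are shown because both are GC rich (77.0% and 76.7%) and both hold the E-box CAGGTG or its reverse complement CACCTG, the sequence that repressors of epithelial genes such as SNAI1 and ZEB1 are known to bind. Each runs from 250 bases before the start of the gene to 50 after it, 5′ to 3′ on the plus strand, as given by RefSeq for GRCh38.p14, at chr6:7541421-7541720 for *DSP* and chr18:31497927-31498226 for *DSG2*. Capitals mark the E-box on either strand.
DSP: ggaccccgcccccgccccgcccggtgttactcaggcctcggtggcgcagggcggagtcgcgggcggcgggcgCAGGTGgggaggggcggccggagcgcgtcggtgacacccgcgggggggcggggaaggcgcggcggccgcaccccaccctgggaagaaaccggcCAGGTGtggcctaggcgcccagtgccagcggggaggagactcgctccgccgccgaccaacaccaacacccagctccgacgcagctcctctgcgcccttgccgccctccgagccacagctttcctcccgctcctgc
DSG2: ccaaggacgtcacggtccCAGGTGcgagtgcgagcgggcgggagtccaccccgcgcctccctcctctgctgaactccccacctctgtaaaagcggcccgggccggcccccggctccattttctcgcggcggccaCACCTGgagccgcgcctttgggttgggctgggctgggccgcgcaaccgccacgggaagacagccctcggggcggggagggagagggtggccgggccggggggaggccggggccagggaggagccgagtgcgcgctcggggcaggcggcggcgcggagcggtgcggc
Each of these promoters holds 2 matches. Promoters were at hand for 6 of the 10 members, 8 windows in all, and not for *EVPL*, *PPL*, *PKP2* or *PKP3*. At least 1 match was present for 3 of these 6 genes, *DSP*, *DSG2* and *DSC2*, the last in 1 of its 2 windows. *DSC3*, *PKP4* and *PERP*, which is as GC rich as *DSP* (77.0%), held none. Of all 35116 promoters of this length, 20.6% hold a match, a share of windows and not of genes. A match describes the letters of this window and was not tied here to the binding of any factor.

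The desmosomal cadherins, which lie in a cadherin cluster on chromosome 18, differed among themselves. *DSG2* encodes desmoglein 2, the desmoglein of simple epithelia, and lies from 31498177 to 31549007. It was at 58.9, 61.8 and 58.8 FPKM in control cells, at 58.7, 59.5 and 57.7 FPKM with shRNA1 and at 58.7, 67.7 and 57.3 FPKM with shRNA2. All groups overlapped, and shRNA2 replicate 2 was far above the rest. Its log2 fold change was 0.00 ± 0.0525 (adjusted p = 0.992 by limma).

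*DSC2*, from 31058841 to 31102421, encodes desmocollin 2. Its values were 4.45, 4.47 and 4.36 FPKM in control cells, 3.68, 3.72 and 3.70 FPKM with shRNA1 and 3.74, 4.33 and 3.81 FPKM with shRNA2. No knockdown library reached the controls, but shRNA2 replicate 2 came close to the lowest of them. *DSC2* fell by 13.4% in knockdown cells (log2 fold change −0.17 ± 0.0434, adjusted p = 0.0278 by limma) and by 16.4% with shRNA1 (log2 fold change −0.21, adjusted p = 0.0194 by limma). With shRNA2 the log2 fold change was −0.13 (adjusted p = 0.0643 by limma), and without shRNA2 replicate 2 it was −0.18 (adjusted p = 0.00220 by limma). *DSC2* also passed with shRNA2 after median centring (adjusted p = 0.0371) and quantile normalization (adjusted p = 0.0380, limma). The pooled call was lost in 6 of 9 fits that each left out 1 library, where the adjusted p ranged from 0.00177 to 0.0993 by limma, and that with shRNA1 was lost in 5 of 9.

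*DSC3*, from 30989365 to 31042815, encodes desmocollin 3, a cadherin of the basal layers of stratified epithelium. It was at 1.73, 1.77 and 1.65 FPKM in control cells, at 1.62, 1.59 and 1.498 FPKM with shRNA1 and at 1.45, 1.29 and 1.27 FPKM with shRNA2. The 3 groups did not overlap, with shRNA2 lowest. *DSC3* fell by 22.0% with shRNA2 (log2 fold change −0.22, adjusted p = 0.00633 by limma). With shRNA1 the value was −0.08 (adjusted p = 0.169), and for both hairpins together it was −0.15 (adjusted p = 0.0718, limma).

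Of the plakophilins, armadillo proteins that bind the cadherin tails to desmoplakin, *PKP3* (chromosome 11, 392596 to 404908) was the most abundant. It was at 24.2, 23.2 and 23.5 FPKM in control cells, at 24.1, 25.0 and 24.4 FPKM with shRNA1 and at 25.8, 24.0 and 25.5 FPKM with shRNA2. The knockdown libraries overlapped the controls, and the log2 fold change was 0.07 ± 0.0309 (adjusted p = 0.165 by limma). Without shRNA2 replicate 2 the comparison of shRNA2 with control gave 0.11 (adjusted p = 0.0230 by limma).

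*PKP4* (chromosome 2, 158456952 to 158681428), also called p0071, is found at adherens junctions as well as desmosomes. Its values were 18.1, 18.5 and 17.8 FPKM in control cells, 17.4, 17.8 and 17.5 FPKM with shRNA1 and 15.9, 16.7 and 15.8 FPKM with shRNA2. The shRNA2 libraries were below all others, while those with shRNA1 overlapped the controls. *PKP4* fell by 10.9% with shRNA2 (log2 fold change −0.16, adjusted p = 0.00873 by limma), whereas the log2 fold change was −0.04 with shRNA1 (adjusted p = 0.351) and −0.10 for both hairpins together (adjusted p = 0.132, limma).

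*PKP2* (chromosome 12, 32790746 to 32896846), a plakophilin best known from the heart and simple epithelia, was at 0.336 to 0.482 FPKM over the 9 libraries. Its mean was under the minimum of 1 FPKM and it was not tested, and its groups overlapped.

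*PERP* (chromosome 6, 138088505 to 138107419) encodes a membrane protein with 4 passes that is a target of p53 and p63 and is needed for desmosome assembly. It was at 8.21, 8.54 and 8.24 FPKM in control cells, at 8.04, 8.49 and 8.52 FPKM with shRNA1 and at 7.12, 8.30 and 7.04 FPKM with shRNA2. Only shRNA2 replicates 1 and 3 lay below the other groups, and replicate 2 lay within them. Its log2 fold change was 0.00 with shRNA1 (adjusted p = 0.987), −0.14 with shRNA2 (adjusted p = 0.111) and −0.21 with shRNA2 when replicate 2 was left out (adjusted p = 0.00521, limma).

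No member differed between the hairpins at an adjusted p under 0.05 by limma, when 6.71% of tested genes did. At an unadjusted p under 0.05 there were 3, all lower with shRNA2: *PKP4* with a log2 difference of −0.12 (unadjusted p = 0.00493, adjusted p = 0.0609 by limma), *DSC3* with −0.14 (unadjusted p = 0.00684, adjusted p = 0.0730) and *PERP* with −0.14 (unadjusted p = 0.0390, adjusted p = 0.195). The shRNA2 libraries lay entirely below the shRNA1 libraries for *PKP4* and *DSC3*, an arrangement found in 14.5% of tested genes, and entirely above them for *DSC2*, found in 11.8%. Without shRNA2 replicate 2, *PKP4* (log2 difference −0.14, adjusted p = 0.0208 by limma) and *PERP* (−0.21, adjusted p = 0.0130 by limma) passed. With all 9 libraries, *PKP4* also passed in 6 alternative fits (adjusted p = 0.0136 to 0.0485 by limma), among them that with the length trend removed.

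Changes in these libraries moved with transcript length. Over 12295 tested genes with a length (98.3%), length and log2 fold change in knockdown cells had a Spearman rho of −0.440, a description across genes of the same libraries. The median log2 fold change was 0.12 in the shortest 10% of genes and −0.10 in the longest 10%, from 6213 to 27614 bases. The members are long: *DSC2* (10850 bases), *DSP* (8741), *DSC3* (6956), *EVPL* (6589) and *PPL* (6238) lie in that longest group, and *PKP3* was the shortest at 2809 bases, against a median of 2659 bases over the tested genes. With the trend removed from each library, 3 members remained lower in knockdown cells, against 5.64% of genes. *DSP* was at a log2 fold change of −0.28 (adjusted p = 0.00274), *EVPL* at −0.28 (adjusted p = 0.00315) and *PPL* at −0.16 (adjusted p = 0.0198, limma). The value of *DSC2* became −0.02 (adjusted p = 0.777) and that of *DSC3* became −0.06 (adjusted p = 0.502, limma). With shRNA2, *PKP4* remained lower at −0.10 (adjusted p = 0.0117) and *DSC3* was at −0.14 (adjusted p = 0.0701, limma).

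**Figure D3:**
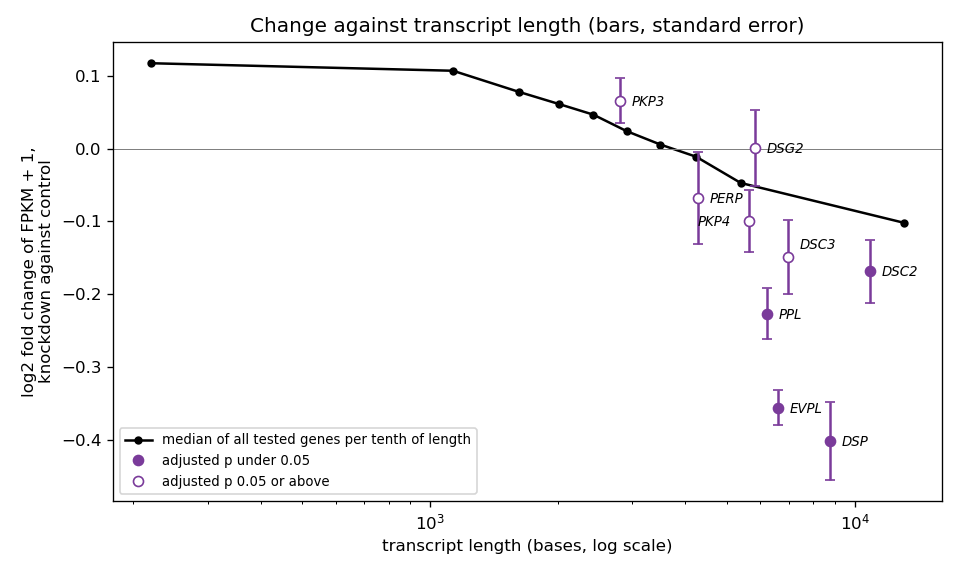
The log2 fold change of FPKM + 1 in knockdown against control (vertical axis) against transcript length in bases (log axis) for the 9 tested members, with bars for the standard error and filled points for an adjusted p under 0.05 by limma. The black line joins the medians of 10 equal groups of tested genes by length, from 0.12 in the shortest to −0.10 in the longest. *DSP*, *EVPL* and *PPL* lie below the line, *DSC2* lies nearer to it, and *DSG2* lies above it.

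The tables list 30 RefSeq transcripts of the 10 genes, of which 12 had a mean of at least 1 FPKM. In knockdown cells 2 of these fell, against 0.656% of 19658 transcripts tested: NM_004415 of *DSP* (log2 fold change −0.39, adjusted p = 0.0262 by limma) and NM_001988, the main transcript of *EVPL* (−0.32, adjusted p = 0.0448 by limma). With shRNA2 NM_004415 alone fell, against 1.77% of transcripts, and with shRNA1 no transcript of a member was called by limma, against 0.259%. *DSP* was split between NM_001008844 and NM_004415, which encode a short and a long form of the desmoplakin rod, and the share of NM_004415 was 42.3% to 51.3% over the 9 libraries. *DSG2*, *PPL* and *PERP* each had 1 transcript, and NM_024422 held 71.1% to 86.6% of *DSC2*. The ranges of the *DSP* and *DSC2* shares overlapped among the 3 groups. *PKP4* had 14 transcripts, 4 of them tested. NM_001377222 held 22.4% to 26.3% of *PKP4* with shRNA1, 12.7% to 21.8% in control and 5.69% to 14.6% with shRNA2. Its log2 difference between the hairpins was −0.95 (adjusted p = 0.185 by limma). The shares of the other tested transcripts of *PKP4* overlapped among the groups. The transcript calls depended on single libraries, and with both hairpins together 0 transcripts of the members were called in 7 of 9 fits that each left out 1 library. Calls were lost over all transcripts as well. In those 7 fits 13 to 35 of all 19658 transcripts were lower, against 129 with all 9 libraries. With the library number as a replicate block, 0 transcripts of the members were called with both hairpins together and 0 with shRNA2. Over all 19658 transcripts, the block left 12 lower with both hairpins, against 129 without it. With shRNA2 it left 14 lower, against 348.

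*DSC3* differed. The share of its FPKM in NM_001941 was 76.2%, 28.6% and 50.5% in control libraries 1, 2 and 3, 82.4%, 33.3% and 58.2% with shRNA1 and 100% (all of it), 31.1% and 56.0% with shRNA2. The share went with the number of the library in all 3 groups, high in libraries numbered 1, low in those numbered 2 and between in those numbered 3. The mean share differed by 55.2 percentage points between libraries 1 and 2, against 5.49 for *DSC2* and 6.43 for *EVPL*. Of 1922 genes with 2 measured transcripts, 203 (10.6%) had shares in libraries numbered 1 that did not overlap those in libraries numbered 2. A random order of groups of 3 values gives a share near this. *DSC3* had the largest difference among the 203 genes and ranked 2 among all 1922. Its transcripts averaged only 0.884 and 0.657 FPKM. The pattern in *DSC3* was chosen after the values were seen, and what the numbers stand for was not tested. The sum over both transcripts, used above, was lowest in the library numbered 3 of each group.

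**Figure D4:**
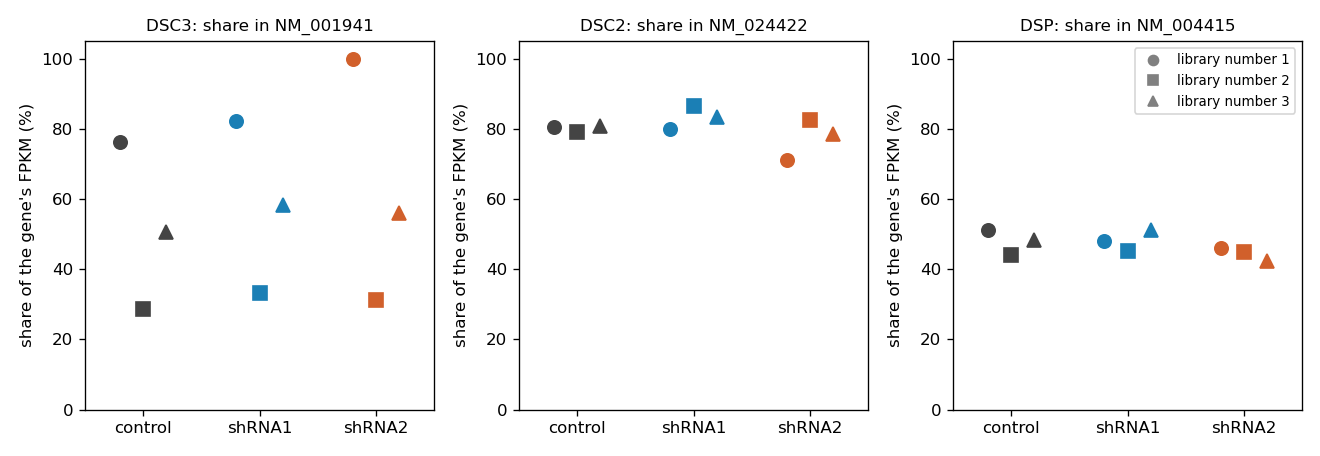
Share of a gene's FPKM in 1 transcript (percent, axis from 0) for *DSC3* (NM_001941), *DSC2* (NM_024422) and *DSP* (NM_004415) in control, shRNA1 and shRNA2, with a symbol for each library number. For *DSC3* the numbers 1, 3 and 2 are stacked in the same order in all 3 groups, from 100% down to 28.6%, and for *DSP* the shares lie between 42.3% and 51.3%.

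Of the other desmosome genes, 2 of 7 were expressed at 1 FPKM or more. *JUP*, which encodes plakoglobin, the armadillo protein shared by desmosomes and adherens junctions, was at 61.2, 57.8 and 55.8 FPKM in control cells, at 49.9, 46.6 and 49.4 FPKM with shRNA1 and at 47.4, 45.9 and 47.8 FPKM with shRNA2. All knockdown libraries were below all controls, and *JUP* fell by 17.9% (log2 fold change −0.28, adjusted p = 0.00320 by limma). The desmogleins *DSG1* and *DSG4* of stratified epithelium were listed at 0, and *KAZN*, which encodes kazrin, a binding partner of periplakin, was at a log2 fold change of −0.01.

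Among other plakins 2 of 5 were tested and both fell, *DST* (dystonin, log2 fold change −0.40, adjusted p = 0.0445) and *MACF1* (−0.38, adjusted p = 0.0164, limma).  The call for *DST* was lost in 11 of 20 alternative settings, and that for *MACF1* was lost with the length trend removed and without control replicate 1 or 2. *PLEC* (plectin) was left out because an entry was not marked as usable. Of 4 armadillo genes related to the plakophilins, 3 were tested, and *CTNND1* (p120-catenin) fell (−0.23, adjusted p = 0.0253 by limma), a call lost without any 1 of the control libraries. With shRNA1 alone it was at −0.22 (adjusted p = 0.0663 by limma).

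Most of the cornified envelope program was not expressed in these cells. Of 21 genes for envelope proteins and their crosslinking enzymes, 18 were under 1 FPKM, and 8 of those were listed at 0. Of the 3 tested genes 1 rose, *SCEL* (sciellin, an envelope precursor), with 5.20 ± 0.057 FPKM in control (SD, n = 3) and 6.42 ± 0.433 FPKM in knockdown cells (SD, n = 6), a log2 fold change of 0.26 (adjusted p = 0.00935 by limma). Its direction was opposite to that of the envelope plakins *PPL* and *EVPL*. The most abundant gene of the list was *S100A11*, a calcium-binding protein crosslinked into the envelope, with 895 ± 15.3 FPKM in control (SD, n = 3) and 1025 ± 83.2 FPKM in knockdown cells (SD, n = 6). It rose with shRNA2 (log2 fold change 0.27, adjusted p = 0.0132), while with both hairpins together it was at 0.19 (adjusted p = 0.0682, limma).

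Of 9 transcription factors of stratified epithelium 4 were tested. *ELF3* (log2 fold change −0.25, adjusted p = 0.0148) and *KLF5* (−0.12, adjusted p = 0.0145, limma) fell with both hairpins together, and none rose. The call for *ELF3* was lost when any 1 control library was left out, and that for *KLF5* without control replicate 1 or 2. *KLF4* rose with shRNA1 alone (0.17, adjusted p = 0.0410 by limma). Of 7 genes for shedding and proteolysis of junctions 4 were tested, and none was called in the pooled comparison by limma, with *ADAM9* at −0.19 (adjusted p = 0.0975) and *MMP14* at −0.14 (adjusted p = 0.143, limma). With shRNA2 alone 3 of them fell, *ADAM9* (−0.29, adjusted p = 0.00891), *ADAM10* (−0.29, adjusted p = 0.0120) and *MMP14* (−0.24, adjusted p = 0.00364, limma). In the family of *PMP22*, to which *PERP* is related, none of 4 was called with both hairpins together, with *EMP3* at 0.15 (adjusted p = 0.0663) and *EMP2* at 0.00, and *EMP3* rose with shRNA2 alone (0.18, adjusted p = 0.0456 by limma). Of 7 keratins 4 were tested, and *KRT19*, a keratin of simple epithelium, rose (0.15, adjusted p = 0.00793 by limma), a call that was lost with quantile normalization and with the length trend removed. *KRT8* fell with shRNA2 alone (−0.15, adjusted p = 0.0145 by limma).

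The epithelial markers moved in both directions. *EPCAM* rose (log2 fold change 0.26, adjusted p = 0.0173) and *CDH1*, which encodes E-cadherin, fell (−0.28, adjusted p = 0.0104, limma). The call for *EPCAM* was lost without any 1 of the control libraries and with the length trend removed. The third marker of immune cells, *CD68*, a lysosomal protein also made by many tumor cells, had a mean of 21.6 FPKM and rose (0.42, adjusted p = 0.00503 by limma), and its part in the results was not tested.

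The genes whose profiles over the 9 libraries were nearest to the 3 largest changes were found by the root mean square distance between values of log2(FPKM + 1) minus the control mean. For *DSP* they were *COL12A1* (distance 0.0404) and *MAP1B* (0.0443). For *EVPL* they were *ARRB1* and *CHD3* (0.0409 each), and for *PPL* they were *ATP8B2* (0.0208) and *LINC00205* (0.0298). The distances describe likeness in these libraries only.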

How the data were processed

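RNA-seq was measured in 9 libraries of DU145 cells. The authors prepared stranded mRNA libraries, used STAR for mapping and Cufflinks for quantification, and the deposited FPKM are given per RefSeq transcript at loci of hg38, although the methods name a mouse genome. Whether counting used strand is not given in the sources used here. Antisense genes listed over members were at most 0.443 FPKM (*DSCAS*).

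Accessions were paired with symbols through a RefSeq table of GRCh38.p14 (72645 of 73240 matched), and FPKM were summed per gene. The 42 genes with an entry not marked usable were left out. Genes averaging 1 FPKM or more were tested as log2(FPKM + 1), which understates changes of low genes, with limma 3.58.1 in R 4.3.3 (Benjamini-Hochberg, threshold 0.05): knockdown against control, and each hairpin against control and against the other in a model with 3 groups. No counts were at hand. Depth was estimated from the Cufflinks confidence bounds, which span about 3.59% to 9.52% of the value on each side for the main transcripts of *DSG2*, *PPL*, *PERP*, *PKP3*, *EVPL* and *DSP*, and 3 libraries per group limit the precision. The length column of the tables is empty, so lengths were taken from GENCODE v29, weighted by FPKM, and the length trend was removed per library by lowess (span 0.3).

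The members and the lists were chosen with earlier results of these data known. Named genes are the members, *FZD6*, *JUP*, up to 3 called genes per list (or the 2 highest where none was called), and the 2 nearest profiles of the 3 members that changed most; others named were chosen after their values were seen. The alternatives changed the pseudocount (0.1 or 0.01), the filter (none or 5 FPKM) or the scaling (median centring, quantile normalization, length trend removed). Others used the replicate number as a block, a trended spread, or the study's thresholds on the limma values. The rest used protein-coding accessions only, used only the libraries compared, or left out each library in turn. 1 fixed list of markers is not reported here. The scripts were tested on simulated data.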

Additional observations from a re-analysis of the deposited data

Results flagged for a closer look

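Within the 6 knockdown libraries, shRNA2 replicate 2 was the highest by a wide gap for 4 of the 33 genes looked at. Its gap to the next library, as a share of the range of the 6 libraries, was 0.791 for *DSG2*, 0.799 for *DSC2*, 0.748 for *DSP* and 0.634 for *MACF1*, above the critical value of 0.625 of Dixon's test. Chance flags about 1 in 20 groups, which would be 1.65 of 33 genes. That number takes the genes as independent and the 6 libraries as 1 population. The libraries hold 2 hairpins, and some of the genes were named by their change or by likeness to members. The members among the flagged genes are long. Also, shRNA2 replicate 2 is the library whose trend with transcript length differed from the other knockdown libraries. The part of that trend in these values was not tested.

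Among the 33 genes looked at, the hairpins differed by limma in 3, none of them a member. The log2 difference of shRNA2 against shRNA1 was 0.20 for *CD68* (adjusted p = 0.0234), −0.25 for *FZD6* (adjusted p = 0.0273) and −0.19 for *MMP14* (adjusted p = 0.0210, limma). When 1 library was left out, the call was lost in 6 of 9 fits for *FZD6*, in 4 of 9 for *CD68* and in 4 of 9 for *MMP14*.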

How the results depend on the processing

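Of 1258 alternative values of single genes, 1146 kept their direction and their side of the threshold, 67 lost the call, 16 gained one and 29 changed sign. *DSP*, *EVPL* and *PPL* were lower and called in all 20 alternatives run for the pooled comparison and all 21 run for each hairpin. This leaves aside the study's thresholds of an unadjusted p under 0.01 and 1.2-fold, applied here to limma on FPKM + 1. Under them the number of members called went from 4, 4 and 5 (both hairpins, shRNA1, shRNA2) to 2, 2 and 2 (*DSP* and *EVPL*). Between the hairpins it went from 0 to 1, *PKP4*, with a filter of 5 FPKM, median centring, the length trend removed, a trended spread, the replicate block, or the block with the length trend removed. Of the members' transcripts, 2 instead of 0 were called with shRNA1, and 2 instead of 1 with shRNA2, with a filter of 5 FPKM, which left 6 of them tested. With that filter, 260 of 9966 transcripts were lower with shRNA1 and 585 with shRNA2. With the minimum of 1 FPKM these counts were 51 and 348 of 19658. When 1 library was left out, the members called ranged from 3 to 4 with both hairpins, 3 to 4 with shRNA1, 5 to 8 with shRNA2 (8 without shRNA2 replicate 2, *DSC2*, *PERP* and *PKP3* being added) and 0 to 2 between the hairpins, and the members' transcripts called ranged from 0 to 2, 0 to 1, 0 to 1 and 0 to 0. The counts over all genes moved too. In these fits 363 to 1228 of 12509 tested genes were lower with both hairpins, 365 to 1367 with shRNA1 and 974 to 1939 with shRNA2. Between the hairpins 270 to 816 were lower. Without shRNA2 replicate 2, 1939 were lower and 2256 higher with shRNA2. Of 19658 transcripts, 13 to 205 were lower with both hairpins, 5 to 125 with shRNA1 and 33 to 494 with shRNA2.

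Libraries of the same number did not deviate together (r = −0.0710 to 0.111 in 9 pairs, against −0.123 to 0.184 for different numbers), so the numbers are not taken as pairing. With the number as a replicate block the members called stayed at 4, 4 and 5 against control, and the transcripts called became 0 with both hairpins and 0 with shRNA2. In those fits 838, 994 and 1534 of 12509 tested genes were lower with both hairpins, shRNA1 and shRNA2. Of all 19658 transcripts, 12 were lower with both hairpins and 14 with shRNA2.

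None of the values that changed sign was called on either side. With median centring *DSG2* (both hairpins) was at a log2 fold change of −0.0043, *EMP2* at −0.0032 and *PERP* (shRNA1) at −0.0059, and with quantile normalization they were at −0.041, −0.0043 and −0.00015. With the length trend removed, with or without the block, the values with shRNA1 became 0.032 for *DSG2*, 0.0091 for *DSC3* and 0.013 for *PKP4*. That of *DSC2* with shRNA2 went from −0.13 to 0.0083, so the whole difference was lost. When 1 library was left out, the log2 fold changes ranged from −0.034 to 0.024 for *DSG2* and −0.031 to 0.019 for *EMP2* (both hairpins), −0.010 to 0.027 for *PERP* (shRNA1) and −0.043 to 0.074 for *DSG2* (shRNA2), and the differences between the hairpins from −0.016 to 0.10 for *DSG2* and −0.018 to 0.049 for *PPL*. The cause was not tested.

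The depth limits *PKP2* and the minor transcripts, and the small changes rest on 3 libraries per group.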
